A study of Mus musculus with 30 samples.

Results

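The mitochondrial ribosomal proteins are described here as a set of 78 genes. They are all the protein-coding genes of the deposited count table whose mouse symbol starts with Mrpl or Mrps followed by a digit, without symbols that end in -ps, out of 55487 gene identifiers in all. The choice used the symbol and no measured value. Of the 78, 51 encode proteins of the large subunit and 26 proteins of the small subunit. The remaining gene, Mrps36, carries the name but encodes what is now known as a subunit of the 2-oxoglutarate dehydrogenase complex. Mrps18a and Mrps30 are counted with the large subunit, where their proteins sit despite their names.

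The mitochondrial ribosome translates the few messenger RNAs of the mitochondrial genome, which all encode subunits of the respiratory chain and ATP synthase. Its RNA is made inside the organelle, while every one of its proteins is encoded in the nucleus, translated in the cytosol and imported. Many of these proteins have a counterpart in the bacterial ribosome, and the others were added during the evolution of mitochondria. The heart draws most of its ATP from the respiratory chain, and inherited defects of several members, among them MRPL3, MRPL44 and MRPS22, cause cardiomyopathy in humans.

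The libraries came from hearts of mice 8 weeks after sham surgery or TAC, in which a clip around the transverse aorta raises the pressure load on the left ventricle. In the floxed cohort, the controls were CPT1a floxed mice with no Cre named, called FF_sham and FF_TAC by surgery. Mice labelled as cardiac specific knockouts of CPT1a, called a knockdown in the design text, formed KO_sham and KO_TAC, and each of these groups had 4 hearts. In the AAV9 cohort, C57Bl/6 mice were given PBS (PBS_sham and PBS_TAC, 3 hearts each) or an AAV9 vector carrying Cpt1a (AAV_sham and AAV_TAC, 4 hearts each); per the design text the vector has a cardiac troponin T promoter, which is active in cardiomyocytes. The labels give neither the Cre driver, nor the age of the mice, nor which of 2 clip sizes a mouse had. KO_TAC was taken from the genotype and treatment labels, since its sample titles hold the words TAC and Sham together. Cpt1a encodes carnitine palmitoyltransferase 1a, an enzyme of the uptake of fatty acids into mitochondria, and the study compared its loss and its gain in the loaded heart.

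Library totals ran from 14839758 to 22070373 counts. Levels are given as CPM, counts scaled to library size with TMM factors within each cohort, so the cohorts were scaled separately. The level of Cpt1a ran from 11.1 to 19.6 CPM in KO_TAC and from 37.8 to 52.7 CPM in FF_sham. KO_sham ran from 20.4 to 23.7 CPM except for the library labelled KO_sham 2, which was inside the FF_sham range at 46.3 CPM. FF_TAC 1 to 4 were at 48.9, 20.3, 16.2 and 34.0 CPM, so that FF_TAC 3 lay inside the KO_TAC range. In the AAV9 cohort Cpt1a ran from 44.8 to 62.7 CPM in AAV_TAC and from 40.3 to 61.6 CPM in PBS_TAC. It ran from 56.3 to 88.4 CPM in AAV_sham and from 37.4 to 68.0 CPM in PBS_sham. The vector and PBS groups thus overlapped with and without overload. Summed haemoglobin transcripts were under 100 CPM in 7 libraries, namely all 4 of KO_TAC, FF_TAC 2 and 3, and the one labelled KO_sham 2, and the same libraries had summed early response transcripts of 2264 to 5596 CPM against at most 996 CPM elsewhere. Cardiomyocyte markers summed to 55340 to 87180 CPM in all libraries but PBS_sham 3, which had 29190 CPM. The markers of atrial muscle were Myl7, Sln, Myl4, Nppa and Bmp10, of which 2 to 5 of 5 were detected in every library of a group. They summed to 4504 to 17230 CPM in KO_TAC, 106 to 3156 CPM in KO_sham, 153 to 492 CPM in FF_TAC and 16.2 to 5243 CPM in FF_sham. The AAV9 cohort had 18.5 to 5725 CPM. All 7 fibroblast, all 6 endothelial and all 7 macrophage markers were detected in every library, and their sums ran from 922 to 2395 CPM, from 493 to 1582 CPM and from 143 to 370 CPM. In whole hearts, fewer cells of a type and less RNA per cell cannot be told apart. For the atrial sum, more atrial tissue and higher levels of these genes in the ventricle cannot be told apart either.

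Promoter sequences are shown because the members moved together across libraries, as described below. RefSeq (GRCm38.p6) gave 75 promoter windows, from 250 bases before to 50 after the start, for 69 of the 78 genes. The ETS motif CCGGAAG, which is bound by GABP, a known regulator of nuclear genes for mitochondria, was found on either strand in 34.7% of these windows and in 8.86% of all 32851 windows. The YY1 motif AAGATGGCG was found in 10.7% against 1.4%, and the NRF1 motif, shown in capitals in the first 3 lines below and bound by another regulator of nuclear genes for mitochondria, in 4% against 0.971%. CCAAT was found in 40% against 37.4%, the E-box CACGTG in 9.33% against 7.15%, and the motif of the estrogen-related receptors TCAAGGTCA in none against 0.423%. None of the 6 motifs contains another as a whole. These shares are a description of the letters in the windows. The ETS motif was also found in members that differed little between KO_TAC and KO_sham, such as Mrpl3 (log2 difference 0.07) and Mrps22 (0.17). No ETS match was found for Mrps6, Mrpl54 and Mrpl20, which were higher in KO_TAC at an adjusted p under 0.05. Whether a motif goes with a rise was not tested. The lines below show 30 bases, 5′ to 3′ on the strand of the gene, around a match in the 3 genes with the NRF1 motif and in 3 ETS-matched genes that were higher in KO_TAC than in KO_sham. Capitals mark the motif or its reverse complement.
Mrpl39 (NRF1, chr16:84735350-84735379, minus strand): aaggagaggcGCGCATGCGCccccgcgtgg
Mrpl32 (NRF1, chr13:14613105-14613134, minus strand): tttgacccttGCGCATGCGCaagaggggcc
Mrpl9 (NRF1, chr3:94443298-94443327, plus strand): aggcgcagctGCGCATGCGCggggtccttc
Mrpl17 (ETS, chr7:105811306-105811335, minus strand): gcatgctccgcCCGGAAGgcgcctcctcca
Mrpl33 (ETS, chr5:31613937-31613966, plus strand): ccgcgcatgccCCGGAAGtagtcgttgagc
Mrpl52 (ETS, chr14:54426851-54426880, plus strand): caagatgtcggCTTCCGGttttcccggcag

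The whole upstream window of Mrpl52 and that of Mrps2, which holds none of the 6 motifs, are given as examples picked by their values. The first gene was among the most raised and the second among the members that moved least with the others in KO_TAC. Each window ends at the base before the gene's start, and capitals again mark the ETS motif.
Mrpl52 (chr14:54426659-54426908, plus strand): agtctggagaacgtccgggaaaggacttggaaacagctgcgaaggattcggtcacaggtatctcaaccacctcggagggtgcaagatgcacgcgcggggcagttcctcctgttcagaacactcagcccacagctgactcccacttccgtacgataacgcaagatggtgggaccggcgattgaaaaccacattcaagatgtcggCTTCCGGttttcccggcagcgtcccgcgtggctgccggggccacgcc
Mrps2 (chr2:28467816-28468065, plus strand): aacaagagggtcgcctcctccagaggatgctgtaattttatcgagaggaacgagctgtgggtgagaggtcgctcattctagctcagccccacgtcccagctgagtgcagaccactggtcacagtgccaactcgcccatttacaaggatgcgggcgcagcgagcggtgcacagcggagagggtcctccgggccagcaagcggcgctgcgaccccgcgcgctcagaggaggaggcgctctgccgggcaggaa

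Of the 78 genes, 77 passed the filter on low counts in both cohorts, with 128 to 4782 counts per library. Mrpl53 had 0 counts in all 30 libraries. In the GENCODE annotation 695 of its exon bases are shared with Gm42688 on the same strand, and how such reads were counted is not given in the sources used here. Exons of 33 members overlap those of another gene, 28 on the opposite strand and 8 on the same strand. Among the members named below these are Mrps6 (464 bases with Slc5a3 and Gm49711 on the same strand), Mrpl33 (261 bases with Gm43809 on the same strand), Mrpl12 (200 bases with Gm16755 on the opposite strand), Mrpl3, Mrpl51 and Mrps18c (same strand), and Mrpl9, Mrpl18, Mrpl19, Mrpl24, Mrpl44, Mrpl58, Mrps18b, Mrps25, Mrps27 and Mrps30 (opposite strand). Their values are uncertain to that extent.

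Levels of different genes were compared as CPM per kb of transcript, taken as the mean of the 8 group means. The level spanned 58.9-fold, with a median of 38.8 CPM per kb over the 77 detected members. The highest were Mrpl42, a mitochondria-specific protein of the large subunit, at 317 CPM per kb, Mrps23, a mitochondria-specific protein of the small subunit, at 232 CPM per kb, and Mrpl30 at 219 CPM per kb. Mrps25 and Mrpl19 were the lowest detected, at 5.38 and 5.96 CPM per kb. The median was 42.6 CPM per kb over 50 large-subunit members and 28.2 CPM per kb over 26 small-subunit members, and the ranges of the subunits overlapped almost wholly. Mrpl12, whose protein forms the stalk that recruits translation factors, stood at 109.5 CPM per kb, and Mrps2 at 14.3 CPM per kb. The order depends on the length used: scaled by all exon bases of the gene, Mrps21, Mrps23 and Mrpl12 came first, at 100.3, 99.2 and 94.1 CPM per kb.

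The members rose and fell together from library to library. The mean log2 CPM over the 77 genes ran from 4.45 in PBS_sham 3 to 6.11 in KO_TAC 2, and their share of all counts from 0.28% to 0.57% in the same libraries. Within KO_TAC, KO_TAC 1 lay a median of 0.74 below the mean of the other libraries of its group (log2 scale), with 74 of 77 members lower there than in any other KO_TAC library. KO_TAC 2 lay a median of 0.70 above the others, with 72 of 77 members higher there than in any other. In PBS_sham 3 the median deviation was -0.92, and 75 of 77 members were below both other PBS_sham libraries. PBS_TAC 3 had all 77 members above both other PBS_TAC libraries (median 0.38), and FF_TAC 2 had 74 of 77 above the rest of its group (median 0.32).

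Both subunits took part: the median deviation of KO_TAC 1 was -0.79 over the large and -0.65 over the small subunit, and that of PBS_sham 3 was -0.95 and -0.76. A shift common to all members accounted for 78.6% of the variance of the 77 genes within groups, against 70.7% for 82 nuclear-encoded respiratory chain genes, 47.9% for 93 cytosolic ribosomal protein genes, 21.4% for 13 mitochondrially encoded messenger RNAs and 0.617% for all genes. Without PBS_sham 3 and the KO_TAC libraries it was still 69.4% for the members, and 68.5% for the respiratory chain genes. Without PBS_sham 3 alone it was 76.7% for the members and 76.8% for the respiratory chain genes. These shares are descriptions of the same 30 libraries.

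Other gene groups moved with the members in these libraries. In KO_TAC 1 and KO_TAC 2 the cytosolic ribosomal protein genes deviated by a median of -0.57 and 0.73 and the respiratory chain genes by -0.77 and 0.89, while the mitochondrially encoded messenger RNAs deviated by -0.14 and 0.01. When the tested genes with a protein-coding transcript were put in 4 equal classes by transcript length, the class of the shortest deviated by -0.20 and 0.19 in the same libraries. That of the longest deviated by 0.21 and -0.22. In PBS_sham 3 the respiratory chain genes deviated by -0.88, but the cytosolic ribosomal protein genes by 0.12. That library had the lowest cardiomyocyte markers, given above. KO_TAC 1 had the highest atrial markers, 17230 CPM, and KO_TAC 2 the highest cardiomyocyte markers, 87180 CPM. The part of transcript length or cell content in the shared shift was not tested.

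**Figure D1:**
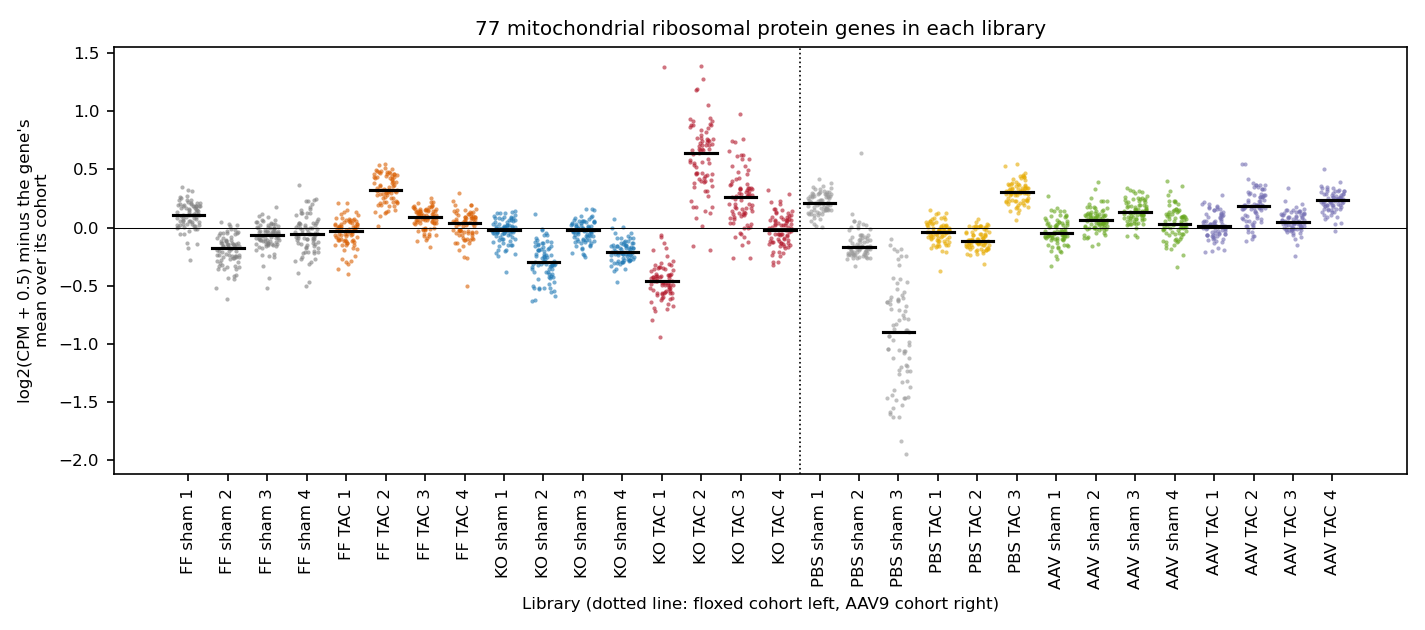
Each dot is 1 of 77 members in 1 library, as its log2(CPM + 0.5) minus the gene's mean over its cohort; black lines are medians. The dots of a library move as a block, low in KO_TAC 1 and PBS_sham 3 and high in KO_TAC 2, and the lone high dot of KO_TAC 1 is Mrps6.

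A few members did not follow, or moved in the same direction but less. Mrps6, a small-subunit protein with a bacterial counterpart, was the one member that was highest in KO_TAC 1, at 60.7 CPM against 25.6 to 36.9 CPM in the other KO_TAC libraries. Mrps2, also of the small subunit, deviated by only -0.20 in KO_TAC 1 and -0.02 in KO_TAC 2. Mrpl39, a mitochondria-specific protein of the large subunit, deviated by -0.24 in KO_TAC 1. In PBS_sham 3, Mrpl20 was at 27.0 CPM, between the other libraries at 24.3 and 31.1 CPM.

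The overload comparison in knockouts, KO_TAC against KO_sham, had the most called members. At an adjusted p under 0.05, 6 members were higher in KO_TAC and 1 was lower, out of 77. This was 7 members where 25.8% of all 15596 genes were called (14.3% higher and 11.5% lower). The median log2 difference of the members was 0.28 against 0.02 over all genes, 72 of 77 had a positive sign, and 18 had an unadjusted p under 0.05 against 40.6% of all genes. By role, 5 of 50 large-subunit members were called higher and 1 lower, and 1 of 26 small-subunit members was called higher.

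Mrps6 had the largest rise. It was at 60.7, 36.9, 35.7 and 25.6 CPM in KO_TAC 1 to 4 and at 17.5, 22.2, 19.2 and 21.1 CPM in KO_sham 1 to 4. All KO_TAC libraries lay above all KO_sham libraries, one of 2 members whose groups did not overlap, where 11.1% of all genes were higher and 12% lower without overlap. The log2 difference was 0.99 (SE 0.22, adjusted p = 0.0066), and it was 0.70 (adjusted p = 0.0061) without KO_TAC 1. With a term for the haemoglobin-low libraries it was 0.72 (adjusted p = 0.17), and with the summed atrial markers as a covariate 0.72 (adjusted p = 0.063).

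The other rises were of large-subunit members and were largest in KO_TAC 2 and 3. Mrpl33, whose bacterial counterpart lies near the exit site for tRNA, was at 50.6, 141, 106 and 61.8 CPM in KO_TAC 1 to 4 against 43.6 to 54.2 CPM in KO_sham. Mrpl52, a mitochondria-specific protein, was at 20.8, 56.1, 39.0 and 21.9 CPM against 17.4 to 20.97 CPM. For both, KO_TAC 1 lay inside the KO_sham range. The log2 differences were 0.90 (SE 0.27, adjusted p = 0.025) for Mrpl33 and 0.86 (SE 0.26, adjusted p = 0.029) for Mrpl52. Mrpl54, also mitochondria-specific, rose by 0.84 (SE 0.25, adjusted p = 0.024), from a mean of 30.04 to 53.7 CPM. Mrpl20, whose bacterial counterpart binds ribosomal RNA early in assembly, rose by 0.71 (SE 0.25, adjusted p = 0.049), and Mrpl17, whose counterpart lies at the exit of the peptide tunnel, by 0.57 (SE 0.19, adjusted p = 0.042). KO_TAC 1 lay inside the KO_sham range for Mrpl54 (27.7 against 26.5 to 34.4 CPM) and Mrpl20 (27.3 against 24.1 to 36.3 CPM). For Mrpl17 it lay below every KO_sham library (33.6 against 35.2 to 37.3 CPM). Each of these 5 lost its call without KO_TAC 2, KO_TAC 3 or KO_sham 4, with the haemoglobin term, and when only KO_TAC and KO_sham were fitted. Mrpl52, Mrpl20 and Mrpl17 also lost it without any other 1 of the KO_sham libraries, Mrpl33 without KO_sham 3 and Mrpl54 without KO_sham 2. Without KO_TAC 2 the log2 differences were 0.59 for Mrpl33, 0.52 for Mrpl52, 0.53 for Mrpl54, 0.38 for Mrpl20 and 0.39 for Mrpl17.

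Mrpl39 was the 1 member that fell. It was at 45.4, 55.9, 52.0 and 53.1 CPM in KO_TAC 1 to 4 and at 62.3, 67.7, 66.2 and 65.8 CPM in KO_sham 1 to 4, so that the groups did not overlap. It fell by 0.35 on the log2 scale (SE 0.10, adjusted p = 0.025). It was no longer called with the haemoglobin term (-0.29, adjusted p = 0.24), with summed atrial markers in the fit (-0.22, adjusted p = 0.18), or without KO_TAC 3, KO_sham 3 or KO_sham 4.

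The members with roles of special interest in the heart or in translation were not called by edgeR; DESeq2 called Mrps12 and Mrps23 of those that follow. The log2 difference was 0.49 (SE 0.23, adjusted p = 0.13) for Mrpl12, at 100.1, 280.5, 188 and 145 CPM in KO_TAC against 101 to 146 CPM in KO_sham, where KO_TAC 1 was below and KO_TAC 2 and 3 were above every KO_sham library. It was 0.54 (SE 0.20, adjusted p = 0.057) for Mrps12, whose counterpart lies at the decoding centre, and 0.07 (SE 0.14, adjusted p = 0.71) for Mrps5, of the same subunit. Among the genes of inherited cardiomyopathy it was 0.07 (SE 0.13) for Mrpl3, 0.17 (SE 0.15) for Mrpl44 and 0.17 (SE 0.14) for Mrps22. Mrpl45, which anchors the ribosome at the inner membrane, had 0.33 (SE 0.22), Mrpl58, a peptidyl-tRNA hydrolase, 0.31 (SE 0.20), Mrps18a 0.40 (SE 0.25) and Mrps30 0.12 (SE 0.15). Mrps36 had 0.13 (SE 0.14), and Mrps2 had -0.14 (SE 0.11). The most abundant members, Mrpl42, Mrps23 and Mrpl30, had 0.01 (SE 0.16), 0.65 (SE 0.25, adjusted p = 0.063) and 0.37 (SE 0.21), and the least abundant, Mrps25 and Mrpl19, 0.32 (SE 0.18) and 0.44 (SE 0.20). Mrps5, Mrpl45 and Mrps36 had a negative sign without KO_TAC 2, and Mrpl42 did so under 7 alternatives.

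The count of called members turned on KO_TAC 1. Without it, 49 members were called, 48 higher and 1 lower, where 40.8% of all genes were called, and the median log2 difference was 0.42. Mrpl12 then had 0.67 (SE 0.19, adjusted p = 0.012), and 9 more of the uncalled members named above were called: Mrps12, Mrps23, Mrps18a, Mrps22, Mrpl19, Mrpl30, Mrpl44, Mrpl45 and Mrpl58. Leaving out any other library of these groups gave 1 to 9 called members, where 12.3% to 24.5% of all genes were called. With KO_TAC 2 left out, the median fell to 0.08. With the atrial covariate 7 members were called, all higher, of which 3 were among the 7 above, where 14.1% of all genes were called. The median of the members was then 0.44, against -0.01 over all genes.

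**Figure D2:**
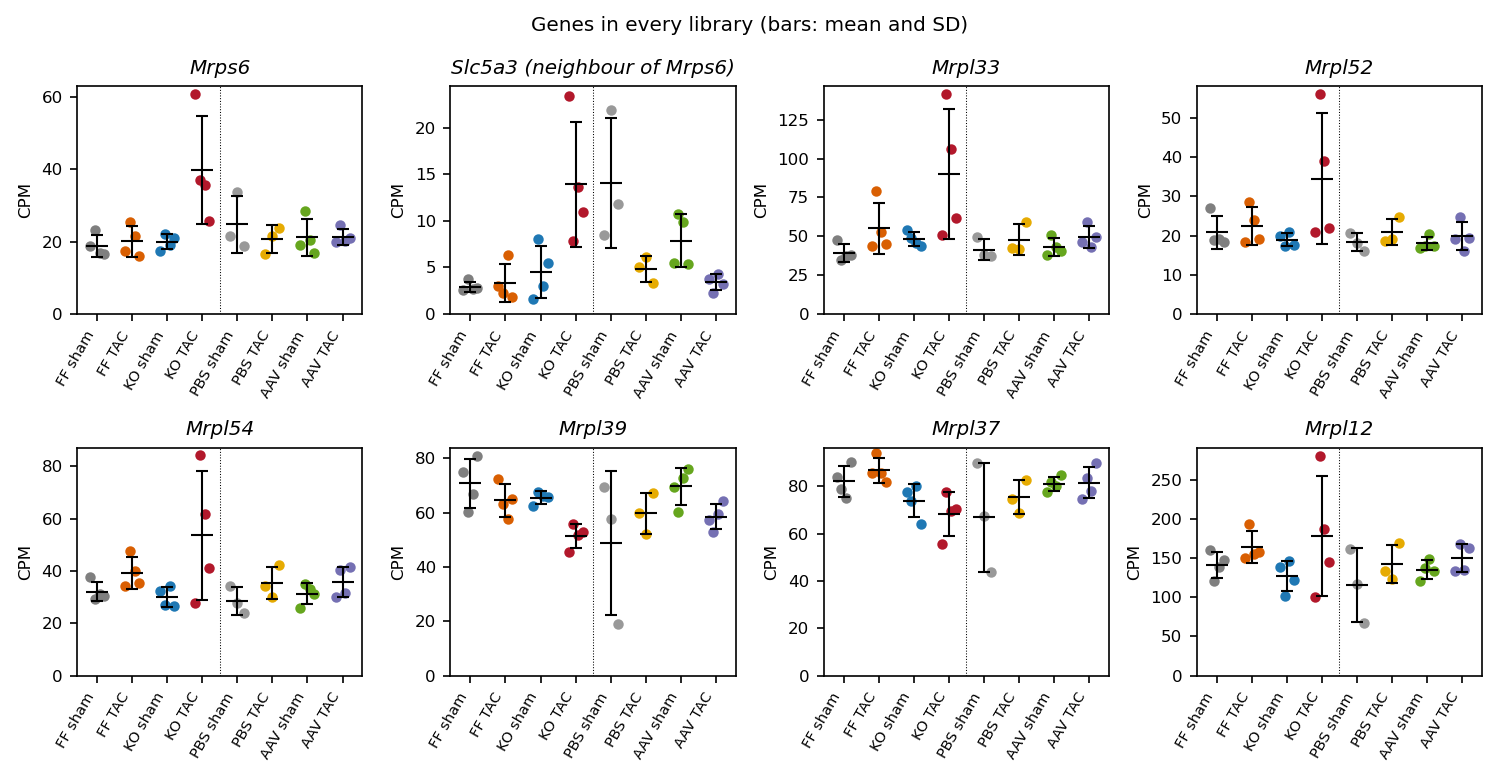
CPM of 7 members and of Slc5a3, the neighbour of Mrps6, in every library of the 8 groups, with mean and SD; the dotted line separates the separately scaled cohorts. In KO_TAC, Mrps6 and Slc5a3 share their highest library, KO_TAC 1 (60.7 and 23.4 CPM), while Mrpl33, Mrpl52, Mrpl54 and Mrpl12 are highest in KO_TAC 2 and Mrpl39 lies low in all 4 libraries.

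Between genotypes under overload, KO_TAC against FF_TAC, 3 of 77 members were called, 1 higher and 2 lower, where 14.3% of all genes were called (7.53% higher and 6.8% lower). The median log2 difference of the members was 0.04, as it was over all genes, 42 of 77 had a positive sign, and 6 had an unadjusted p under 0.05 against 31.1% of all genes. The median turned on single libraries: it was 0.17 without KO_TAC 1 and -0.19 without KO_TAC 2. With the atrial covariate it was 0.24, against 0.01 over all genes. Mrps6 was again higher: FF_TAC was at 17.3, 25.3, 21.5 and 16.1 CPM, all below the KO_TAC values given above, with a log2 difference of 0.99 (SE 0.22, adjusted p = 0.0085). This comparison shares the KO_TAC libraries with the one before.

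Both lower members were mitochondria-specific proteins of the large subunit. Mrpl37 was at 55.5, 77.7, 69.4 and 70.3 CPM in KO_TAC 1 to 4 and at 85.5, 93.8, 85.5 and 81.7 CPM in FF_TAC 1 to 4, without overlap. It fell by 0.34 on the log2 scale (SE 0.11, adjusted p = 0.045). Mrpl39 was at 57.7 to 72.3 CPM in FF_TAC, also without overlap, and fell by 0.32 (SE 0.10, adjusted p = 0.047). Without overlap, 6.76% of all genes were higher and 6.76% lower in KO_TAC. Leaving out 1 library ended each of these calls in 6 of 8 fits, while Mrps6 was called in all 8. With the atrial covariate no member was called, where 1.06% of all genes were, and Mrps6, Mrpl37 and Mrpl39 had 0.62 (adjusted p = 0.22), -0.17 (adjusted p = 0.48) and -0.15 (adjusted p = 0.49). Among the haemoglobin-low libraries alone (4 of KO_TAC and 2 of FF_TAC), no member was called, and neither was any other gene. Mrps6 was also not called when only KO_TAC and FF_TAC were fitted, where 3.79% of all genes were called.

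Slc5a3, an inositol transporter gene that shares exon bases with Mrps6 on the same strand, was higher in the same comparisons. It was at 23.4, 7.88, 13.6 and 10.9 CPM in KO_TAC 1 to 4, with means of 4.51 CPM in KO_sham and 3.35 CPM in FF_TAC. Its log2 difference was 1.64 (SE 0.46, adjusted p = 0.020) against KO_sham and 2.06 (SE 0.47, adjusted p = 0.010) against FF_TAC. In the AAV9 cohort the genes differed: in AAV_TAC against AAV_sham Slc5a3 had -1.21 (SE 0.33, adjusted p = 0.30), while Mrps6 had means of 21.39 and 21.18 CPM. Within the AAV9 cohort both genes were highest in PBS_sham 2, at 33.8 CPM for Mrps6 and 21.8 CPM for Slc5a3. The library with the highest atrial markers of its group had the highest Mrps6 in 5 of 8 groups and the highest Slc5a3 in 8 of 8. How reads of the shared bases were assigned, and the part of atrial tissue in these values, was not tested.

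The interaction of genotype and overload asks whether overload acted differently in knockouts and controls, and no member was called, where 0.0449% of all genes were (0.0256% higher and 0.0192% lower). DESeq2 called no member where it called 2.47% of all genes. In this test of edgeR 1 member had an unadjusted p under 0.05, against 13.1% of all genes. The median of the members was 0.12 against 0.03 over all genes. It was 0.31 with the atrial covariate, 0.28 without KO_TAC 1 and -0.08 without KO_TAC 2. The smallest p values were those of Mrps6, with a difference of log2 differences of 0.90 (SE 0.31, adjusted p = 0.22), and Mrpl52, with 0.75 (SE 0.37, adjusted p = 0.40).

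In floxed controls, FF_TAC against FF_sham, no gene was called at all (0% of 15596), and 0 of 77 members had an unadjusted p under 0.05 in edgeR, against 11.1% of all genes. DESeq2 called no member either, where it called 1.22% of the genes it tested. The signs were nevertheless mostly positive, 71 of 77, with a median of 0.15 against -0.01 over all genes, which was 0.09 without FF_TAC 2 and 0.04 when only haemoglobin-high libraries were used. Mrps18b and Mrpl33 had the smallest p values, with 0.30 (SE 0.16, adjusted p = 0.49) and 0.48 (SE 0.27, adjusted p = 0.50). Mrpl33 was at 43.7, 78.9, 52.8 and 44.99 CPM in FF_TAC 1 to 4 and at 47.6, 34.9, 37.3 and 37.8 CPM in FF_sham 1 to 4, so that FF_sham 1 lay inside the FF_TAC range. Mrps18a, Mrpl51 and Mrpl18, named after their values were seen, were the 3 members with every FF_TAC library above every FF_sham library, where 2.74% of all genes were. No member had every FF_TAC library below, as 3.3% of all genes did.

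Without overload, KO_sham against FF_sham, again no gene was called (0%), and in edgeR 0 of 77 members had an unadjusted p under 0.05 against 5.22% of all genes. DESeq2 gave an adjusted p to only 3193 genes, among them 37 members. It called 0.47% of these genes and none of the 37 members. The libraries of the groups overlapped for every member, while 3.23% of all genes were higher and 3.55% lower without overlap. Here 66 of 77 signs were negative and the median was -0.10, or -0.04 without FF_sham 1 and -0.05 without the library labelled KO_sham 2. Mrpl4, whose counterpart lines the peptide tunnel, had -0.25 (SE 0.13, adjusted p = 0.98), with means of 70.8 CPM in KO_sham and 84.1 CPM in FF_sham, and Mrps2 had -0.20 (SE 0.11, adjusted p = 1.0). The library labelled KO_sham 2, whose Cpt1a level lay inside the FF_sham range, had the lowest members of its group, with 51 of 77 below the other 3.

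**Figure D3:**
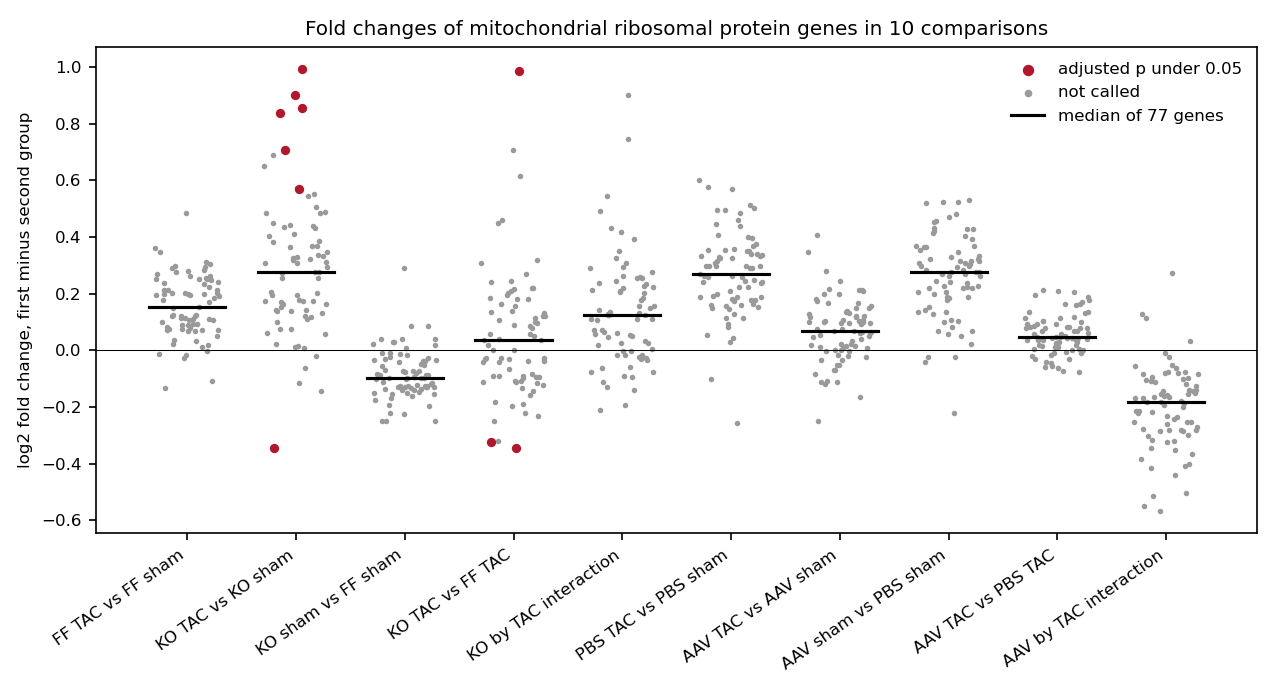
Log2 differences (first minus second group) of the 77 tested members in the 10 comparisons, with those called at an adjusted p under 0.05 in red and medians as black lines. Calls are limited to KO_TAC vs KO_sham (6 higher, 1 lower) and KO_TAC vs FF_TAC (1 higher, 2 lower), while the medians range from 0.28 in KO_TAC vs KO_sham to -0.18 in the AAV by TAC interaction.

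In the AAV9 cohort no member was called in any of the 5 comparisons by edgeR or DESeq2. For overload with PBS, PBS_TAC against PBS_sham, 0.0318% of all genes were called (0.0127% higher and 0.0191% lower), 75 of 77 member signs were positive, the median was 0.27, and 3 members had an unadjusted p under 0.05 against 18.5% of all genes. Mrpl57 had 0.57 (SE 0.24, adjusted p = 0.24), at 21.6 to 31.7 CPM in PBS_TAC against 10.1 to 22.6 CPM in PBS_sham, and Mrpl20 had 0.33 (SE 0.14, adjusted p = 0.25). No member was without overlap between these groups, where 8.11% of all genes were higher and 6.57% lower. For the vector without overload, AAV_sham against PBS_sham (0.0127% called), the median was likewise 0.28, with 1 member at an unadjusted p under 0.05 against 20.7% of all genes. Mrpl3, whose counterpart reaches to the peptidyl transferase centre, had 0.41 (SE 0.19, adjusted p = 0.23), and Mrpl16, which helps to hold the tRNA there, had 0.52 (SE 0.26, adjusted p = 0.27). Mrpl16 was at 68.0 to 74.3 CPM in the 4 AAV_sham libraries and had a median of 56.6 CPM in PBS_sham, from 22.1 in PBS_sham 3 to 68.9 CPM, so that the groups overlapped. They did so for every member, while 5.53% of all genes were higher and 5.32% lower without overlap.

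Both medians rested on PBS_sham 3. Without that library they were 0.02 for PBS_TAC against PBS_sham and 0.01 for AAV_sham against PBS_sham. Without PBS_sham 1, which left PBS_sham 2 and 3, they were 0.59 and 0.56, and 4 and 18 members were called, where 11.1% and 17.4% of all genes were.

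Under the vector, AAV_TAC against AAV_sham (0.00635% of all genes called), the median was 0.07 (0.02 without AAV_TAC 4 and 0.12 without AAV_TAC 1), 59 of 77 signs were positive, and 0 members had an unadjusted p under 0.05 in edgeR against 7.05% of all genes. Mrpl24 had 0.18 (SE 0.10, adjusted p = 0.79), at 54.6 to 61.7 CPM in AAV_TAC against 49.1 to 54.1 CPM in AAV_sham, and Mrpl20 had 0.22 (SE 0.12, adjusted p = 0.80). Mrpl24 was 1 of 5 members with AAV_TAC above AAV_sham in all libraries, where 4.9% of all genes were and 5.79% were below; the others were Mrpl9, Mrps14, Mrps18c and Mrps27, named after their values were seen.

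Between vector and PBS under overload, AAV_TAC against PBS_TAC (0.0381% called, 0.0127% higher and 0.0254% lower), the median was 0.05 (-0.02 without PBS_TAC 2 and 0.19 without PBS_TAC 3), and 0 members had an unadjusted p under 0.05 in edgeR against 3.19% of all genes. Mrpl19 had 0.21 (SE 0.18) and Mrpl24 0.09 (SE 0.11), both with an adjusted p of 1.0. The libraries overlapped for every member, while 4.19% of all genes were higher and 4.27% lower without overlap. In the interaction of vector and overload (0.00635% called) the median was -0.18, and 0 members had an unadjusted p under 0.05 in edgeR against 6.95% of all genes. Mrpl16 had -0.57 (SE 0.37, adjusted p = 0.70) and Mrpl3 -0.35 (SE 0.26, adjusted p = 0.71). Without PBS_sham 3 the median turned to 0.06, and without PBS_sham 1 it was -0.49.

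Among the other nuclear genes of mitochondrial translation and of mitochondrial DNA expression, those called in KO_TAC were lower when all libraries were used. These are 73 tested genes in 5 lists: other ribosomal subunits, assembly factors, translation factors, tRNA synthetases, and factors that copy and transcribe mitochondrial DNA. In KO_TAC against FF_TAC, 21 of the 73 were called lower and none higher, with a median of -0.27, against 2 of 77 members lower. In KO_TAC against KO_sham, 10 of 73 were lower and none higher, with a median of -0.12, against 1 of 77 members lower and 6 higher. Without KO_TAC 1 that comparison had 12 lower and 10 higher of the 73, with a median of -0.04, and without KO_TAC 3 it had 3 lower. These counts describe the lists, beside 6.8% and 11.5% of all genes called lower, and the difference between the lists and the members was not tested.

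Assembly factors held 6 lower genes of 26 in KO_TAC against FF_TAC. Mettl17, which assists assembly of the small subunit, fell by 0.56 on the log2 scale (SE 0.10, adjusted p = 0.0026), from a mean of 14.1 to 9.58 CPM. Gtpbp10, a GTPase of large-subunit assembly, fell by 0.45 (SE 0.11, adjusted p = 0.012), and Rpusd4, which modifies the large ribosomal RNA, by 0.38 (SE 0.10, adjusted p = 0.017). Against KO_sham 4 of 26 were lower, among them Gtpbp10 (-0.59, adjusted p = 0.0027), Mettl17 (-0.57, adjusted p = 0.0023) and Eral1, a chaperone of the small ribosomal RNA (-0.31, adjusted p = 0.025). Eral1 lost its call without KO_sham 1, KO_TAC 2 or KO_TAC 3. Ptcd3, a subunit of the small ribosomal particle named outside the Mrp scheme, was the 1 of 5 other subunits called lower, by 0.57 against FF_TAC (SE 0.13, adjusted p = 0.0094), from 115 to 77.6 CPM.

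Of 14 translation factors, 5 were lower against FF_TAC and 2 against KO_sham. Taco1, an activator of translation of a cytochrome oxidase subunit, fell by 0.69 (SE 0.16, adjusted p = 0.011), Gfm1, the elongation factor that moves the ribosome along, by 0.52 (SE 0.11, adjusted p = 0.0073), and Lrpprc, which stabilises mitochondrial messenger RNAs, by 0.49 (SE 0.11, adjusted p = 0.0094), from 187 to 134 CPM. Against KO_sham, Gfm1 fell by 0.39 (adjusted p = 0.021) and Lrpprc by 0.36 (adjusted p = 0.026). Of 17 tRNA synthetases, 7 were lower against FF_TAC, among them Iars2 (-0.47, adjusted p = 0.0098), Aars2 (-0.45, adjusted p = 0.0053) and Hars2 (-0.42, adjusted p = 0.020), which charge the tRNAs for isoleucine, alanine and histidine. Against KO_sham 4 were lower, with Nars2 (-0.45, adjusted p = 0.024), Iars2 (-0.40, adjusted p = 0.015) and Hars2 (-0.40, adjusted p = 0.018) as the largest. Of 11 genes of mitochondrial DNA expression, Polrmt, the mitochondrial RNA polymerase (-0.44, adjusted p = 0.021), and Mterf2 (-0.47, adjusted p = 0.037) were lower against FF_TAC and none against KO_sham. Among the genes named here, leaving out 1 library ended calls against KO_sham for Gfm1 (KO_sham 1, KO_sham 3, KO_TAC 2, KO_TAC 3), Lrpprc (KO_sham 1, KO_sham 3, KO_TAC 3), Nars2 (KO_sham 1, KO_sham 4, KO_TAC 3) and Hars2 (KO_sham 1, KO_TAC 2, KO_TAC 3). Against FF_TAC it did so for Hars2 (FF_TAC 1, FF_TAC 4, KO_TAC 2, KO_TAC 3), Polrmt (FF_TAC 4, KO_TAC 2, KO_TAC 3) and Mterf2 (FF_TAC 1, FF_TAC 3, FF_TAC 4, KO_TAC 3, KO_TAC 4).

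Among 12 regulators of mitochondrial biogenesis, 3 were called higher and 3 lower in KO_TAC than in KO_sham, where 14.3% of all genes were called higher and 11.5% lower. Against FF_TAC 4 were called lower, where 6.8% of all genes were. Ppara, the nuclear receptor of fatty acid oxidation, fell by 1.33 (SE 0.22, adjusted p = 0.0020) and by 1.23 (SE 0.22, adjusted p = 0.0030). Esrrg, an estrogen-related receptor, fell by 0.57 (adjusted p = 0.0078) and by 0.59 (adjusted p = 0.0080), and Esrrb by 0.51 against FF_TAC (adjusted p = 0.013). Gabpa, the DNA-binding subunit of GABP, fell by 0.50 against KO_sham (adjusted p = 0.015), while Gabpb1, its partner subunit, rose by 0.70 (adjusted p = 0.021). Myc rose by 2.44 (SE 0.85, adjusted p = 0.046), and Pprc1, a coactivator of the PGC-1 family, by 0.64 (adjusted p = 0.022). The call of Myc was lost in 6 of 8 fits without 1 library (KO_sham 1, 3 or 4, KO_TAC 2, 3 or 4), where its log2 difference ran from 2.11 to 4.10 over the 8, and with the haemoglobin term, where it was 0.74. Leaving out 1 library also ended the calls of Gabpb1 (KO_sham 3, KO_TAC 3, KO_TAC 4), Pprc1 (KO_sham 1, KO_sham 3, KO_TAC 3) and, against KO_sham, Gabpa (KO_TAC 3).

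The protein-coding genes on the mitochondrial genome itself, the templates of this ribosome, were lower too: 7 of 13 were called lower in KO_TAC against each of KO_sham and FF_TAC, with medians of -0.63 and -0.62. Of the cytosolic ribosomal protein genes, 68 of 93 were higher and 1 lower against KO_sham (median 0.64), but only 8 were higher and 2 lower against FF_TAC (median 0.48). Nuclear-encoded respiratory chain genes resembled the members in their median against KO_sham, 0.26, with 3 of 82 called higher and 2 lower. Of all genes, 14.3% were called higher and 11.5% lower against KO_sham, and 7.53% and 6.8% against FF_TAC. All of these lists share the KO_TAC libraries, in which atrial markers were high and haemoglobin transcripts low. With the atrial covariate, the lower genes of the 5 lists were 2 of 73 against KO_sham and 0 of 73 against FF_TAC. With the haemoglobin term they were 1 and 10. Of the named genes of these 5 lists and the regulators, only Ppara kept its call against FF_TAC with the atrial covariate. All 4 KO_TAC libraries are haemoglobin-low, and 1 other library of the floxed cohort, FF_sham 2, reached their range of atrial markers.

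**Figure D4:**
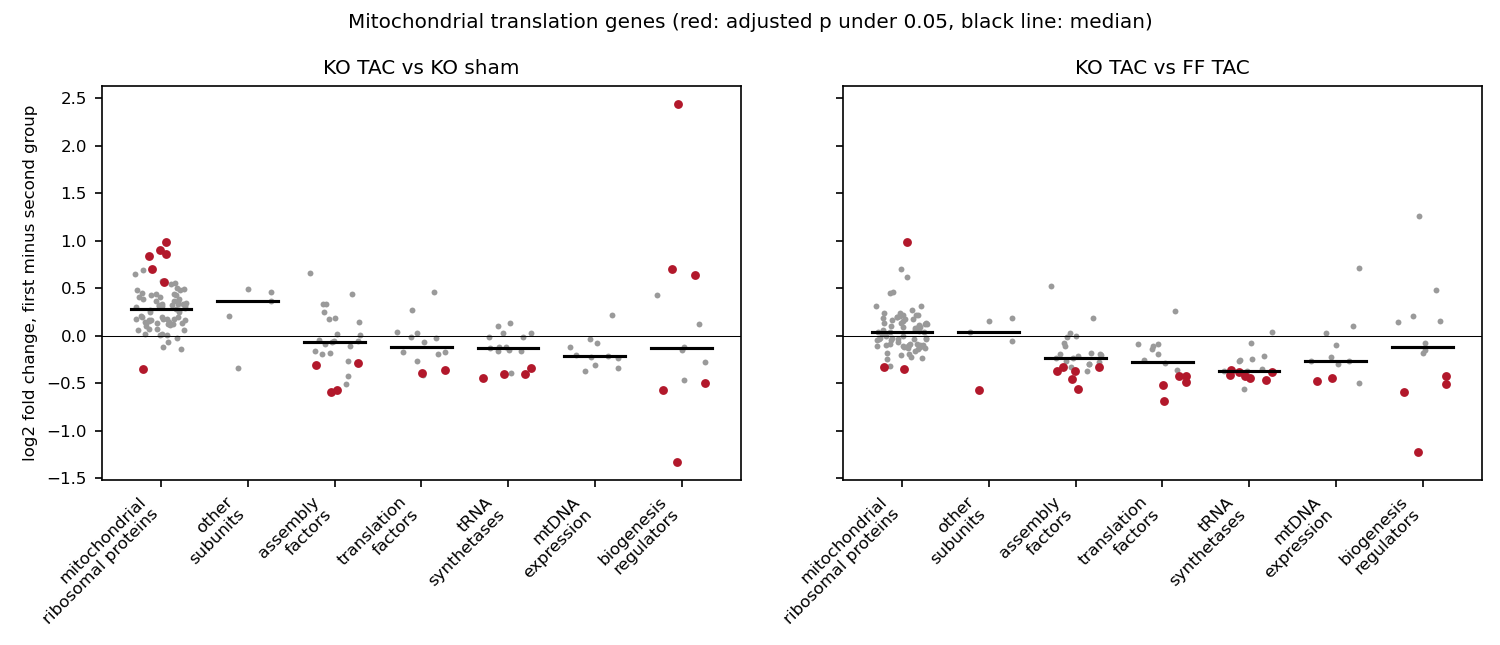
Log2 differences of the members and of 6 further lists of mitochondrial translation and biogenesis genes in KO_TAC against KO_sham (left) and FF_TAC (right); red dots have an adjusted p under 0.05 and black lines are medians. Red dots of the 4 largest lists of translation and mitochondrial DNA genes lie below 0, and 21 of 73 genes in the 5 lists are lower against FF_TAC.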

How the data were processed

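Poly(A) RNA was sequenced in 30 hearts with a stranded kit, per the labels' protocols. The authors deposited whole-number counts per gene and library; the submitters' processing notes name HISAT2 2.1.0, featureCounts, Subread 1.5.1 and GRCm38. The strand setting and annotation release are not given in the sources used here. Symbols came from GENCODE M21, which named 55141 of 55487 identifiers; the others held 0.0192% of counts. Each cohort was fitted alone in edgeR 4.0.16 (R 4.3.3), giving every group its own mean and testing differences by quasi-likelihood, with TMM scaling, filterByExpr and Benjamini-Hochberg adjustment over all tested genes (15596 and 15745), called at an adjusted p under 0.05. SE is the log2 difference over the square root of F. Promoters came from RefSeq (GRCm38.p6). The fits were run on simulated counts for the first comparison of each cohort. These counts were drawn independently per gene with the same spread in every gene and group, so they lack the shared library shifts described above. Named members are the 5 largest rises and falls called per comparison with at least 5 CPM, the 2 smallest p values where none was called, the 3 highest and lowest levels and a fixed list of roles, and up to 3 called genes per further list and direction; Mrpl17 was added after its values were seen. Members and lists were chosen with earlier results of these data known. Nothing in the labels says more of the replicates than that they are separate hearts, so p-values measure the spread between these hearts. Alternatives were DESeq2 1.42.0, RLE scaling, no mitochondrial rows, no filter, a replicate block, only the groups compared, a haemoglobin term, leaving out each library, and, chosen after seeing the data, an atrial covariate (log2 of the summed atrial CPM plus 0.5).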

Additional observations from a re-analysis of the deposited data

Results flagged for a closer look

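In groups of 4 libraries, 186 sets of values (30 named members and the members' mean, in 6 groups) were checked for 1 library standing apart from the other 3 by Dixon's test, which by chance marks about 1 in 20. It marked 5. Mrpl52 was at 26.95 CPM in FF_sham 1 against 18.3 to 19.2 CPM in the other FF_sham libraries. The same gene was at 20.53 CPM in AAV_sham 3 against 16.9 to 17.5 CPM. Mrps23 was also high in AAV_sham 3, at 155.1 CPM against 129.5 to 132 CPM. In FF_TAC 2, Mrps12 was at 45.34 CPM against 30.6 to 32.3 CPM, and Mrps2 at 33.22 CPM against 30.2 to 30.7 CPM. Each of these libraries also had the highest mean over the members in its group.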

How the results depend on the processing

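Numbers of called members were 0 under every alternative in 8 comparisons, but for 4 in PBS_TAC against PBS_sham and 18 in AAV_sham against PBS_sham without PBS_sham 1. Leaving out 1 library gave 1 to 49 called members in KO_TAC against KO_sham (12.3% to 40.8% of all genes). It gave 1 to 5 in KO_TAC against FF_TAC (7.06% to 24.3% of all genes). In KO_TAC against KO_sham there were 0 with the haemoglobin term (1.75% of all genes) and 2 with only the groups compared (15.5%). In KO_TAC against FF_TAC there was 1 without the low-count filter (5.14% of all genes), 1 with the replicate block (13.6%) and 1 with the haemoglobin term (7.23%). There were 0 with only the groups compared (3.79%), 0 in haemoglobin-low libraries alone (0%) and 0 with the atrial covariate (1.06%). For the other translation and mitochondrial DNA genes called lower in KO_TAC, these settings gave, against KO_sham, 5 without the filter, 1 with the haemoglobin term, 3 with only the groups compared and 2 with the atrial covariate, and 3 to 15 when leaving out 1 library. Against FF_TAC they gave 12, 10, 0 and 0, 0 in haemoglobin-low libraries, and 12 to 25. The cause of these changes was not tested. Fits of only the compared groups hold fewer libraries and also take the spread from those groups alone, and the part of either was not tested. DESeq2 called 10 and 3 members in the same 2 comparisons, of which 7 and 3 were the ones reported, where it called 30.9% and 19.7% of all genes. No named gene turned its sign where it was called. Of the members given without a call in KO_TAC against KO_sham, without KO_TAC 2 the sign turned for Mrps5, Mrpl45, Mrps36 and Mrpl42; over all fits without 1 library they ran from -0.083 to 0.19, from -0.012 to 0.51, from -0.030 to 0.24 and from -0.19 to 0.12. Mrpl42, at 0.01 in the reported fit, also had -0.021 without the filter, -0.010 with the replicate block, -0.0067 with the haemoglobin term, -0.0084 with only the groups compared, -0.064 without KO_sham 2 and -0.028 without KO_sham 4. With the atrial covariate Mrps2 had 0.052 and Mrpl37 0.024 (-0.12 in the reported fit). The replicate block left 5 and 1 called (24.9% and 13.6% of all genes), with adjusted p = 0.067 for Mrpl37 and 0.070 for Mrpl39 against FF_TAC. Over 29 pairs of libraries with the same number the correlation of deviations ran from -0.456 to 0.440 and was over 0.1 in 11, and in no comparison in all pairs, so the numbers were not taken to pair the hearts. Between FF_TAC and KO_TAC it was 0.440, 0.274, 0.127 and -0.023.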
